A study of Mus musculus with 8 samples.

Results

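The genes described here are 10 genes known for their expression in astrocytes: Gfap, Aqp4, Aldh1l1, Slc1a2, Slc1a3, Gja1, Aldoc, S100b, Fgfr3 and Mlc1. They were taken as a list of symbols, and all 10 were found among the 33885 gene symbols of the count tables. Total RNA was sequenced from adult male C57Bl6J mice in 4 groups of 2 libraries. In the nucleus accumbens (NAc), a ventral striatal region, mice conditioned in a place preference chamber with intraperitoneal cocaine at 7.5 mg/kg were set against mice that stayed in the home cage. In the medial prefrontal cortex (mPFC), mice that had met social defeat by aggressive CD1 males were set against home-cage mice. Tissue was taken 15 min after the experience. Mice left in the home cage had neither injection nor encounter, so the effect of cocaine cannot be told apart from those of injection, handling and the chamber. The labels do not say that the 2 libraries of a group came from separate animals. The p-values therefore reflect the spread between these libraries alone, which may be technical.

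Astrocytes are glial cells that take up glutamate and potassium released by neurons, couple to each other through gap junctions, and wrap blood vessels with endfeet. Glutamate enters them through the transporters GLT-1 and GLAST, encoded by Slc1a2 and Slc1a3, and is turned into glutamine. Their marker genes are not interchangeable: Gfap, an intermediate filament gene that rises in reactive astrocytes, is low in most grey-matter astrocytes, whereas Slc1a2, Aldoc and Aldh1l1 are widely expressed there.

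The total count per library ranged from 111901829 to 179479978, and the least counted of the 10 genes, S100b, had 654 to 868 counts per library. Values below are CPM, the counts of a gene relative to the scaled total of its library, with scaling factors set over all 8 libraries. The NAc libraries stood apart by replicate number: the summed level of 8 markers of striatal projection neurons was 2231 and 783 CPM in cocaine replicates 1 and 2, and 2746 and 732 CPM in home-cage replicates 1 and 2. In the 4 mPFC libraries it was 131 to 144 CPM. The labels do not say what the number marks.

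Promoter stretches are shown for the 3 genes that were lower in NAc than in mPFC in both regional comparisons, Slc1a2, Aldoc and Aldh1l1, and for Slc1a3, a transporter gene related to Slc1a2 that did not pass either. RefSeq promoter windows (GRCm38.p6, 250 bases before to 50 bases after an annotated start) matched 9 of the 10 genes; Aqp4 was the unmatched symbol. The bases before the first annotated exon base are printed 5′ to 3′ on the gene's strand, and capitals mark a match to a searched motif.
Slc1a2: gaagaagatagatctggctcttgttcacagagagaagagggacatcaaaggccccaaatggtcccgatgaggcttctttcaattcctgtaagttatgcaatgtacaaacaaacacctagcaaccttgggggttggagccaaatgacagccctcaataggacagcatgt
Aldoc: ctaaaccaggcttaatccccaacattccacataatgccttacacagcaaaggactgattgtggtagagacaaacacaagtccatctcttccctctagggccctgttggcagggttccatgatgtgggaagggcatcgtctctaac
Aldh1l1: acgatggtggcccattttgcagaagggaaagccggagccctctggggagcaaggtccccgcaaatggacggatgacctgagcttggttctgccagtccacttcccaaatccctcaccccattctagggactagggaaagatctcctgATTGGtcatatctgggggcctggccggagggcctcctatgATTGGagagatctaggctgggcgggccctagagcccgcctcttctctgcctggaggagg
Slc1a3: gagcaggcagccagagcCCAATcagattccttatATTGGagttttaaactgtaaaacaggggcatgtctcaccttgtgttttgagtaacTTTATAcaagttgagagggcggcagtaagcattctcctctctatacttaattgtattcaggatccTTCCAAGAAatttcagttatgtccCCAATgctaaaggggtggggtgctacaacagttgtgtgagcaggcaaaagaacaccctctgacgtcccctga

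The Slc1a2 stretch lies at chr2:102706188-102706355 on the plus strand, inside the longer span that GENCODE gives the gene. The Aldoc stretch lies at chr11:78322823-78322967 on the plus strand and ends at the base before the gene's GENCODE start. The Aldh1l1 stretch lies at chr6:90550543-90550788 on the plus strand, also within the GENCODE span, and that of Slc1a3 at chr15:8710808-8711057 on the minus strand. A total of 5 motifs were searched on both strands: the nuclear factor I palindrome, the STAT motif TTCNNNGAA, the SOX core ACAATG, the TATA box TATAAA and the CCAAT box CCAAT. Of 32851 windows of 300 bases, these occurred in 0.0365%, 8.3%, 12.6%, 13.6% and 37.4%. The Slc1a2 window and the Aldoc window shown held no match. A second Aldoc window, at chr11:78323948-78324247, held 2 STAT motifs and is not printed. The Aldh1l1 window held 2 matches to the CCAAT motif. The Slc1a3 window held 3 matches to the CCAAT motif, 1 to the STAT motif and 1 to the TATA motif, the last as its reverse complement TTTATA. No matches overlapped in the printed stretches, and whether any of them is a working site was not tested.

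Some of the 10 genes differed by region, and none passed the test after either experience. In home-cage mice 3 of the 10 genes were lower in NAc than in mPFC at an adjusted p under 0.05: Slc1a2, Aldoc and Aldh1l1. Over all 18300 genes tested, 12.4% passed, 7.01% as higher and 5.35% as lower in NAc. In the libraries that this comparison does not use, NAc after cocaine against mPFC after defeat, Slc1a2, Aldoc, Aldh1l1 and also Aqp4 were lower in NAc, where 36.3% of 18362 genes passed and 17.1% were lower. There, region and experience cannot be told apart. After cocaine edgeR passed 0 of the 10 genes (0% of 18418 genes), and after defeat 0 of the 10 (0.704% of 18027 genes). In these tissue samples, fewer astrocytes and less RNA of a gene per astrocyte cannot be told apart.

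**Figure D1:**
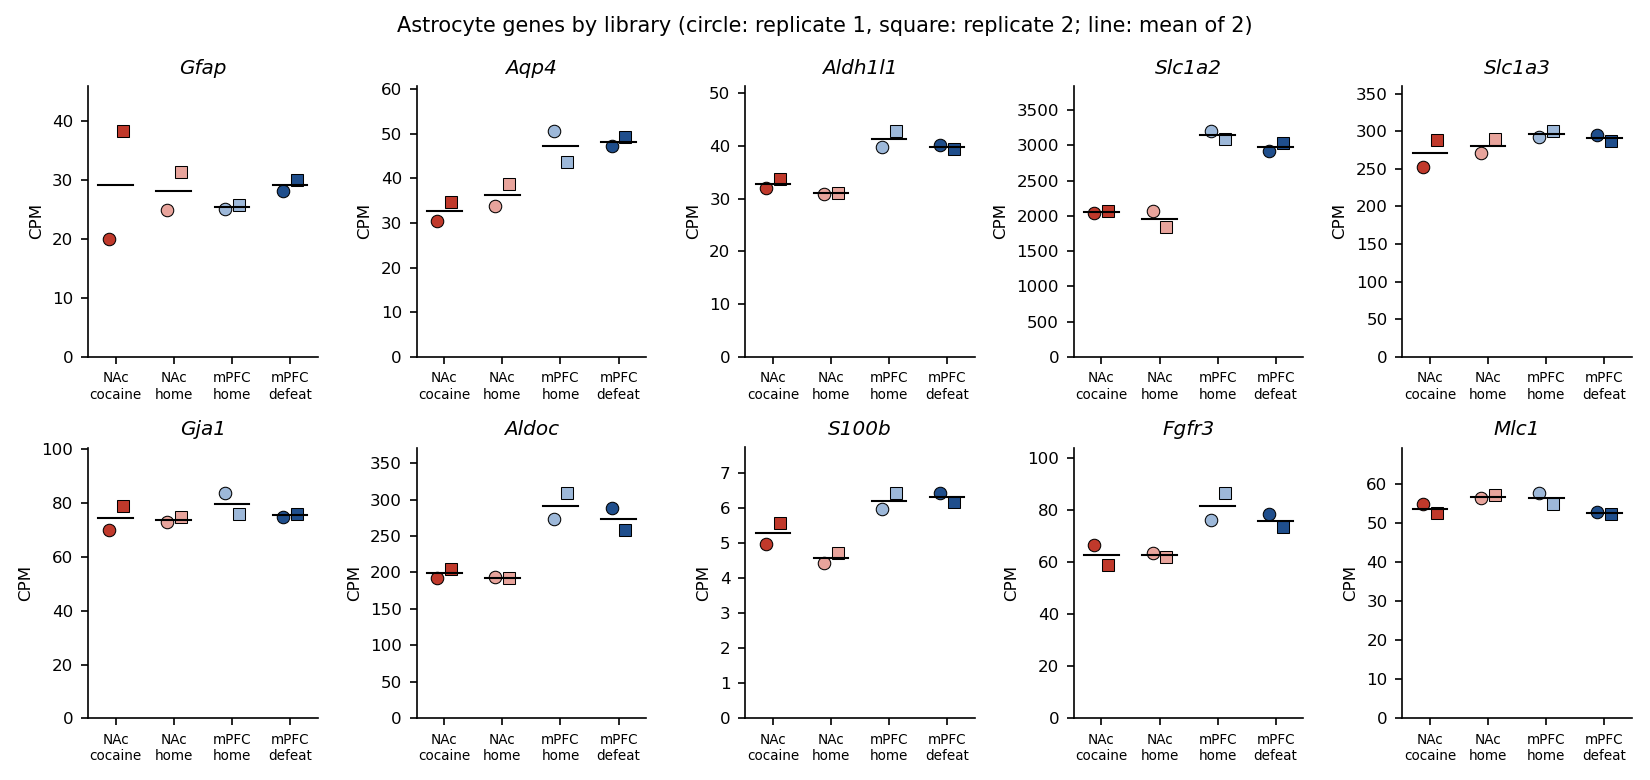
Level of each of the 10 astrocyte genes in CPM (vertical axis from 0) in the 8 libraries, by group on the horizontal axis; circles are replicate 1, squares replicate 2, and lines the mean of 2. Slc1a2 sits between 1836 and 2068 CPM in the NAc libraries and between 2917 and 3202 CPM in the mPFC libraries, while Gfap spreads most between the 2 cocaine libraries, 19.9 and 38.2 CPM.

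Per kilobase of annotated exon, the 10 genes spanned a wide range of levels. In home-cage mPFC, Slc1a2 had 239 ± 6.20 CPM per exon kb (SD, n = 2), followed by Aldoc at 89.4 ± 7.76, Slc1a3 at 34.7 ± 0.673 and Mlc1 at 20.1 ± 0.739. Fgfr3 had 11.4 ± 1.04 CPM per exon kb, Aldh1l1 9.14 ± 0.480, Gja1 7.79 ± 0.560, Aqp4 7.56 ± 0.778, Gfap 6.03 ± 0.114 and S100b 4.18 ± 0.214. Gja1 and Aqp4 did not differ beyond their spread. In home-cage NAc the order began the same way, with Slc1a2 at 148 ± 12.3, Aldoc at 59.1 ± 0.286, Slc1a3 at 32.8 ± 1.52 and Mlc1 at 20.3 ± 0.217 CPM per exon kb. Whether reads in introns were counted is not given in the sources used here, and the order depends on it. Per kilobase of the whole gene span, Aldoc led in home-cage mPFC with 60.6 CPM against 23.8 for Slc1a2, and Aldh1l1, the gene with the second longest span, was last with 0.363.

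Slc1a2 encodes GLT-1, the main glutamate transporter of forebrain astrocytes, and lies on chromosome 2 at 102658659 to 102790784 (GRCm38, plus strand), overlapped by the antisense gene Gm13872. It had 2063 and 1836 CPM in the home-cage NAc libraries and 3202 and 3087 CPM in the home-cage mPFC libraries. Cocaine libraries had 2036 and 2068 CPM, and defeat libraries 2917 and 3030 CPM. All 4 NAc libraries were lower than all 4 mPFC libraries. In home-cage mice the level was 1.62-fold lower in NAc, a log2 fold change of -0.69 (SE 0.143, 95% interval -1.05 to -0.33, edgeR adjusted p = 0.0400). Between cocaine NAc and defeat mPFC it was -0.53 (SE 0.104, adjusted p = 0.0140). After cocaine the log2 fold change was 0.07 (95% interval -0.31 to 0.45), and after defeat it was -0.08 (95% interval -0.24 to 0.08, adjusted p = 0.973).

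Slc1a3 encodes GLAST, the other astrocytic glutamate transporter, and lies on chromosome 15 at 8634124 to 8710764 (minus strand). Its levels were 271 and 289 CPM in home-cage NAc, 253 and 288 CPM after cocaine, 292 and 300 CPM in home-cage mPFC, and 295 and 287 CPM after defeat. The NAc and mPFC ranges met, since the upper NAc libraries exceeded the lower defeat library. The regional log2 fold change in home-cage mice was -0.08 (SE 0.110, 95% interval -0.36 to 0.20, adjusted p = 0.656), and in the exposed mice it was -0.10 (SE 0.0950, adjusted p = 0.437). The intervals for cocaine (-0.37 to 0.27) and defeat (-0.18 to 0.13) held 0. The CPM of Slc1a2 divided by that of Slc1a3 in the same library was 6.35 to 8.06 in the 4 NAc libraries and 9.90 to 10.97 in the 4 mPFC libraries, which did not overlap. Of the neuronal and other relatives, Slc1a1, the neuronal transporter EAAC1, was higher in NAc in the exposed mice (0.30, SE 0.0764, adjusted p = 0.0318). In home-cage mice its log2 fold change was 0.47 (SE 0.120, adjusted p = 0.0644).

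Aldoc encodes the glycolytic enzyme aldolase C and lies on chromosome 11 at 78322968 to 78327781 (plus strand). It had 194 and 192 CPM in home-cage NAc, 192 and 205 CPM after cocaine, 274 and 310 CPM in home-cage mPFC, and 289 and 259 CPM after defeat. Every NAc library was lower than every mPFC library. The home-cage level was 1.51-fold lower in NAc (log2 fold change -0.60, SE 0.116, 95% interval -0.89 to -0.30, edgeR adjusted p = 0.0343), and the exposed mice gave -0.46 (SE 0.0916, adjusted p = 0.0148). Aldoa, the aldolase gene of most tissues, had -0.41 (SE 0.165, adjusted p = 0.167) in home-cage mice and was lower in NAc in the exposed mice at -0.46 (SE 0.101, adjusted p = 0.0198). The Aldoc to Aldoa ratio of CPM overlapped between regions, at 0.232 to 0.292 in NAc and 0.273 to 0.297 in mPFC. The Aldoc log2 fold change was 0.04 after cocaine (95% interval -0.21 to 0.30) and -0.09 after defeat (95% interval -0.25 to 0.08).

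Aldh1l1 encodes a folate-metabolising dehydrogenase used widely as a marker of all astrocytes. It lies on chromosome 6 at 90486427 to 90600203 (plus strand) and overlaps Gm45901, Gm44236 and the antisense gene Gm15756. Its levels were 30.9 and 31.1 CPM in home-cage NAc, 32.0 and 33.7 CPM after cocaine, 39.8 and 42.8 CPM in home-cage mPFC, and 40.1 and 39.3 CPM after defeat. The regions did not overlap, and the replicates lay close together. The home-cage level was 1.33-fold lower in NAc (log2 fold change -0.41, SE 0.0912, 95% interval -0.64 to -0.19, edgeR adjusted p = 0.0453). In the exposed mice the log2 fold change was -0.27 (SE 0.0624, adjusted p = 0.0229). Both cocaine libraries were above both home-cage libraries, with a log2 fold change of 0.09 that did not pass (95% interval -0.12 to 0.29), and defeat gave -0.05 (95% interval -0.21 to 0.10).

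Aqp4, on chromosome 18 at 15389496 to 15410982 (minus strand, overlapped by the antisense gene AC133525.2), encodes the water channel of endfeet. It had 33.8 and 38.7 CPM in home-cage NAc, 30.4 and 34.8 CPM after cocaine, 50.6 and 43.7 CPM in home-cage mPFC, and 47.2 and 49.2 CPM after defeat. No NAc library reached the lowest mPFC library. The home-cage log2 fold change of -0.38 (SE 0.124, 95% interval -0.69 to -0.07) did not pass (edgeR adjusted p = 0.108), whereas the exposed mice gave a level 1.48-fold lower in NAc (-0.56, SE 0.0840, adjusted p = 0.00669). Its log2 fold change was -0.15 after cocaine (95% interval -0.47 to 0.16) and 0.03 after defeat (95% interval -0.13 to 0.19).

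Gja1, on chromosome 10 at 56377330 to 56402513 (plus strand), encodes connexin 43, the main gap junction protein of astrocytes. Its levels were 72.9 and 74.7 CPM in home-cage NAc, 69.9 and 79.0 CPM after cocaine, 83.9 and 75.8 CPM in home-cage mPFC, and 74.8 and 76.1 CPM after defeat. The libraries of the 2 regions overlapped. The home-cage regional log2 fold change was -0.11 (SE 0.102, 95% interval -0.37 to 0.14, adjusted p = 0.489), and the exposed mice gave -0.02 (95% interval -0.22 to 0.19). It was 0.01 after cocaine (95% interval -0.25 to 0.27) and -0.08 after defeat (95% interval -0.23 to 0.07). Gjb6, which encodes connexin 30, the other astrocytic connexin, was 2.15-fold lower in home-cage NAc (-1.10, SE 0.120, edgeR adjusted p = 0.00907), with 12.2 and 14.3 CPM in NAc and 28.9 and 28.1 CPM in mPFC. The Gja1 to Gjb6 ratio of CPM was 5.12 to 6.05 in the NAc libraries and 2.69 to 2.91 in the mPFC libraries.

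Mlc1, on chromosome 15 at 88955884 to 88979007 (minus strand), encodes a membrane protein of astrocyte endfeet that takes part in volume regulation. It had 56.3 and 57.2 CPM in home-cage NAc, 54.8 and 52.6 CPM after cocaine, 57.8 and 54.9 CPM in home-cage mPFC, and 53.0 and 52.4 CPM after defeat. The whole range over the 8 libraries was narrow and the regions overlapped. The regional log2 fold change was 0.01 in home-cage mice (SE 0.0901, 95% interval -0.22 to 0.24, adjusted p = 0.963) and 0.03 in exposed mice (95% interval -0.12 to 0.18). Both exposed groups had both libraries below both of their home-cage libraries, at -0.08 after cocaine (95% interval -0.28 to 0.12) and -0.09 after defeat (95% interval -0.25 to 0.06, adjusted p = 0.947), and neither passed.

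Gfap, on chromosome 11 at 102887336 to 102900912 (minus strand), overlaps the lincRNA gene Gm26668 on the opposite strand and encodes the intermediate filament of the astrocyte skeleton. It had 24.9 and 31.2 CPM in home-cage NAc, 19.9 and 38.2 CPM after cocaine, 25.1 and 25.8 CPM in home-cage mPFC, and 28.1 and 29.9 CPM after defeat. The 2 cocaine libraries lay outside both home-cage libraries, on opposite sides. Replicate 2 exceeded replicate 1 by 1.92-fold after cocaine and by 1.25-fold in home-cage NAc, while the other 9 genes had ratios of replicate 1 to replicate 2 of 0.874 to 1.13 and 0.873 to 1.12. The log2 fold change after cocaine was 0.05 (SE 0.341, 95% interval -0.86 to 0.96), with cocaine to home-cage ratios of 0.799 at number 1 and 1.22 at number 2. Without cocaine replicate 1 or 2 it was 0.45 or -0.49, and neither passed.

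After defeat, both libraries had more Gfap than both home-cage libraries, a log2 fold change of 0.19 (SE 0.0808, 95% interval 0.03 to 0.35) that did not pass over all genes (edgeR adjusted p = 0.525, unadjusted p = 0.0205). In the same comparison all 6 oligodendrocyte markers had negative log2 fold changes (median -0.22), of which 5 had an unadjusted p under 0.05 and 0 passed, and their part in the Gfap value was not tested. The regional log2 fold change of Gfap was 0.14 in home-cage mice (SE 0.135, adjusted p = 0.527) and 0.00 in exposed mice (95% interval -0.71 to 0.72). Its exposed regional value followed the NAc library used: without cocaine replicate 1 it was 0.40, and without cocaine replicate 2 it was -0.55.

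S100b, on chromosome 10 at 76253853 to 76261159 (plus strand), encodes a calcium-binding protein that astrocytes also secrete. It overlaps Dip2a on the opposite strand, and whether counting used strand is not given in the sources used here. S100b had 4.44 and 4.73 CPM in home-cage NAc, 4.97 and 5.58 CPM after cocaine, 5.97 and 6.42 CPM in home-cage mPFC, and 6.44 and 6.17 CPM after defeat. All NAc libraries were below all mPFC libraries, but the regional log2 fold changes, -0.44 in home-cage mice (SE 0.130, edgeR adjusted p = 0.0877) and -0.26 in exposed mice (SE 0.105, adjusted p = 0.111), did not pass. Cocaine gave 0.20 (SE 0.127, 95% interval -0.14 to 0.54), with both cocaine libraries above both home-cage libraries, and defeat gave 0.03 (95% interval -0.18 to 0.24).

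Fgfr3, on chromosome 5 at 33721674 to 33737068 (plus strand), encodes a fibroblast growth factor receptor of astrocytes and their precursors and overlaps G630022F23Rik on the opposite strand. Its levels were 63.3 and 61.8 CPM in home-cage NAc, 66.4 and 58.7 CPM after cocaine, 76.0 and 86.6 CPM in home-cage mPFC, and 78.3 and 73.3 CPM after defeat. Again no NAc library reached an mPFC library. The regional log2 fold changes, -0.38 in home-cage mice (SE 0.106, 95% interval -0.65 to -0.11, edgeR adjusted p = 0.0773) and -0.27 in exposed mice (SE 0.0857, adjusted p = 0.0546), missed the threshold, and DESeq2 called both. Fgfr2, a related receptor found in astrocytes and oligodendrocytes, had 0.33 (SE 0.119, adjusted p = 0.134) in home-cage mice and was higher in NAc in exposed mice (0.51, SE 0.102, adjusted p = 0.0154). Fgfr1 had -0.01 and -0.02 (adjusted p = 0.950 and 0.873). Fgfr3 had 0.00 after cocaine (95% interval -0.25 to 0.26) and -0.10 after defeat (95% interval -0.25 to 0.06).

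**Figure D2:**
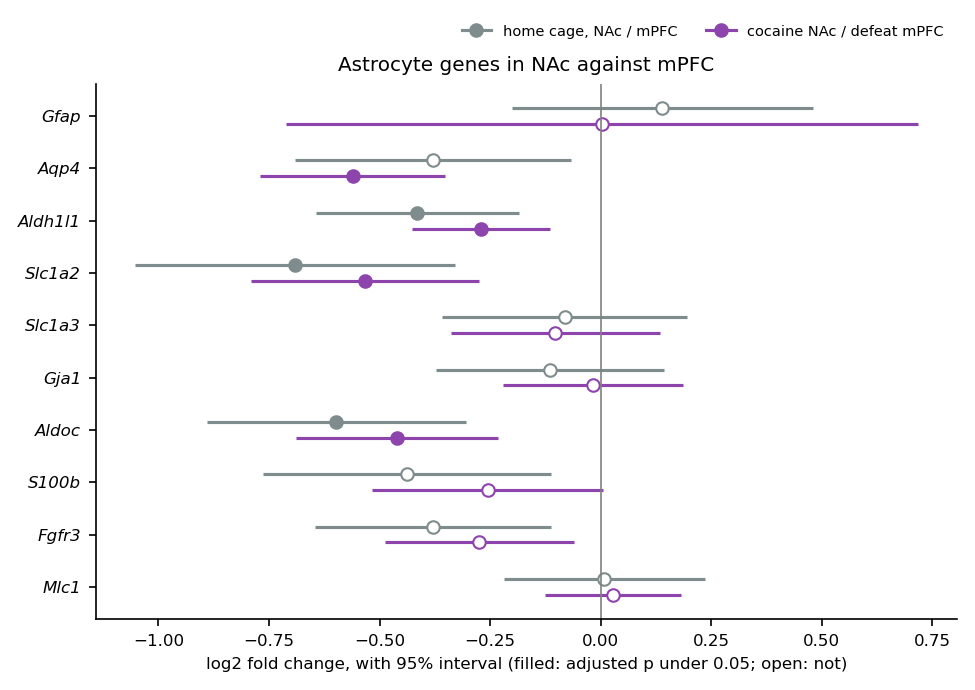
Log2 fold change of NAc against mPFC for the 10 genes (horizontal axis, below 0 is lower in NAc) with 95% intervals; grey is home-cage mice, purple is cocaine NAc against defeat mPFC, and filled points have an adjusted p under 0.05. Slc1a2, Aldoc and Aldh1l1 are filled in both comparisons, Aqp4 in the exposed mice, and Gfap has the widest purple interval, -0.71 to 0.72.

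Over the 10 genes, the home-cage regional log2 fold change had a median of -0.38, against 0.01 over all genes tested. Both NAc libraries were below both mPFC libraries in 8 of the 10 genes, where 31.2% of all genes showed this. None had both NAc libraries above both (32.2% of all genes), and Gfap and Mlc1 overlapped. In the exposed mice the median was -0.26 (0.01 over all genes), and 6 of the 10 genes had both NAc libraries below (36.9% of all genes) and 0 had both above (37.3%). The 2 regional comparisons share no libraries. DESeq2 called 4 of the 10 genes in home-cage mice, where it called 3622 of 23883 genes in all. In exposed mice it called 5 of the 10, and 6711 of 23895 genes in all. Fgfr3 was the added gene each time.

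The calls in home-cage mice were lost without either mPFC library, while the log2 fold changes of Slc1a2, Aldoc and Aldh1l1 stayed negative. Without mPFC home-cage replicate 1 or 2, 0 genes of any kind passed in home-cage mice (2680 and 2724 at an unadjusted p under 0.05), while Slc1a2 had -0.67 and -0.73, Aldoc -0.69 and -0.51, and Aldh1l1 -0.48 and -0.37. Without NAc home-cage replicate 1 or 2, which differ in striatal markers, Slc1a2 had -0.77 and -0.61, Aldoc -0.60 and -0.60, and Aldh1l1 -0.40 and -0.43. In those fits Aqp4 had -0.49 without replicate 2, and Gfap had 0.30 without replicate 1 and -0.04 without replicate 2. In the exposed mice the calls of Slc1a2, Aldoc, Aldh1l1 and Aqp4 were also lost without either defeat library. There Aqp4 had -0.59 and -0.54 without defeat replicate 1 or 2. A fit that leaves 1 library in a group takes that library to vary like the other group. Without an mPFC library the spread therefore came from the NAc pair alone. The loss of the calls in those fits cannot show whether the regional calls rested on the mPFC libraries.

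None of the 10 genes passed the test after either experience. The cocaine log2 fold changes ran from -0.15 (Aqp4) to 0.20 (S100b), with a median of 0.03 against -0.01 over all genes. Both cocaine libraries were above both home-cage libraries for Aldh1l1 and S100b (11.8% of all genes) and below for Mlc1 (11.9% of all genes). At an unadjusted p under 0.05, 211 of all genes and none of the 10 had a cocaine difference, and DESeq2 called 4 genes and none of the 10. The cocaine interval was widest for Gfap, and for the other 9 genes the intervals ran from -0.47 at the lowest to 0.54 at the highest.

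The defeat log2 fold changes ran from -0.10 (Fgfr3) to 0.19 (Gfap), with a median of -0.07 against 0.00 over all genes. Both defeat libraries were above both home-cage libraries for Gfap (16.4% of all genes) and below for Slc1a2 and Mlc1 (17.8% of all genes). The defeat intervals ran from -0.25 at the lowest to 0.35 at the highest. DESeq2 called 95 genes after defeat and none of the 10. The difference between the cocaine and the defeat response was tested in a fit of all 8 libraries, where 0 of 18783 genes passed (0%; 415 at an unadjusted p under 0.05, and 2 by DESeq2). For the 10 genes it ran from -0.19 (Aqp4) to 0.18 (S100b), each with an edgeR adjusted p of 1.

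**Figure D3:**
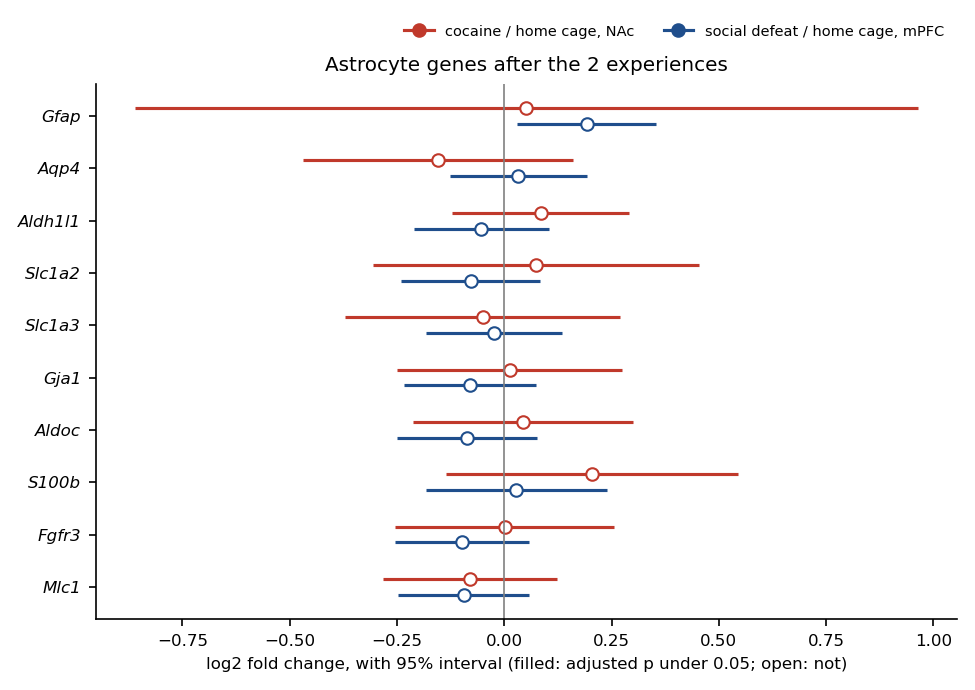
Log2 fold change after cocaine in NAc (red) and after social defeat in mPFC (blue) against home-cage mice for the 10 genes, with 95% intervals; open points have an adjusted p of 0.05 or more. All 20 points are open, and the cocaine interval of Gfap, -0.86 to 0.96, is the widest.

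Slc1a2 made up most of the counts of the set. The summed level of the 10 genes was 2617 to 2864 CPM in the 4 NAc libraries and 3828 to 4107 CPM in the 4 mPFC libraries, which did not overlap. Slc1a2 took 70.2% to 73.8% of that sum in NAc and 76.2% to 78.0% in mPFC. Without Slc1a2 the other 9 genes summed to 723 to 796 CPM in NAc and 872 to 946 CPM in mPFC, again without overlap. Glul, glutamine synthetase, which converts the glutamate that Slc1a2 takes up, had 658 and 675 CPM in home-cage NAc and 864 and 909 CPM in home-cage mPFC. Its log2 fold change was -0.41 in both regional comparisons, and passed in the exposed mice (adjusted p = 0.0192) and not in the home-cage mice (adjusted p = 0.0826). The Glul to Slc1a2 ratio of CPM was higher in every NAc library (0.316 to 0.368) than in any mPFC library (0.270 to 0.305).

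**Figure D4:**
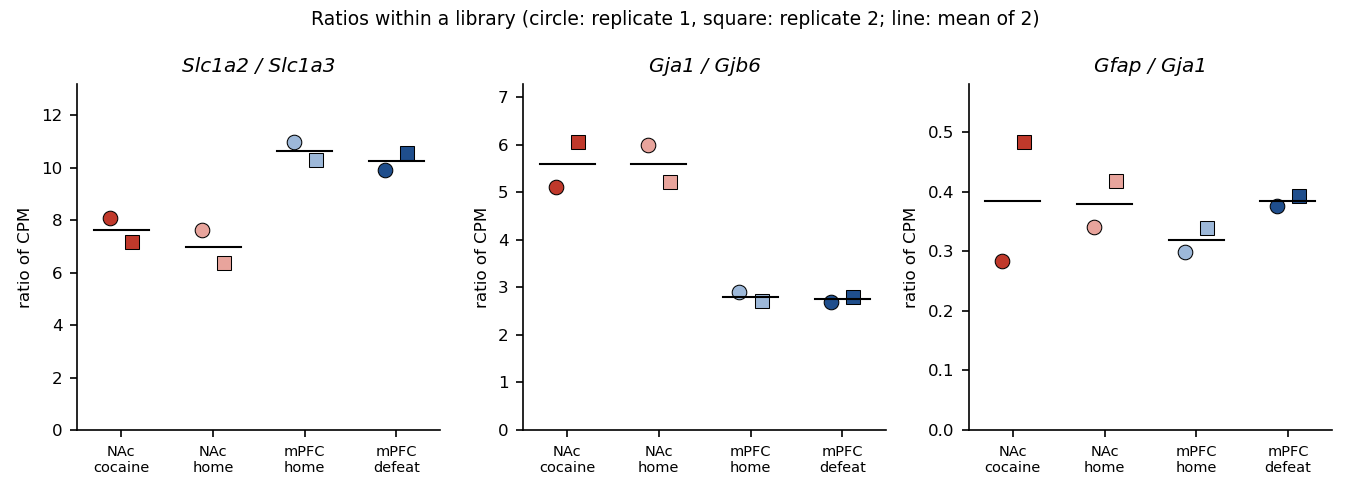
Ratios of CPM within each library (vertical axes from 0) for Slc1a2 to Slc1a3, Gja1 to Gjb6 and Gfap to Gja1, by group; circles are replicate 1, squares replicate 2, and lines the mean of 2. The first ratio is 6.35 to 8.06 in NAc and 9.90 to 10.97 in mPFC, the second 5.12 to 6.05 and 2.69 to 2.91, and the third overlaps between regions.

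Across the 8 libraries, most of the genes varied together. Of the 45 pairs among the 10 genes, 12 had a Pearson correlation of log2 CPM over 0.8 and 11 a negative one, with a median of 0.56. The highest was 0.99 between Aldh1l1 and Aldoc. Correlated with the mean of the other 9 genes, Aqp4 and Aldoc had 0.91 each, Aldh1l1 0.90, Slc1a2 0.86, S100b 0.83, Slc1a3 0.80, Fgfr3 0.71 and Gja1 0.63. Gfap (0.09) and Mlc1 (-0.21) did not follow the set. The 8 points come from 2 regions and share them with the regional comparison, so the correlations are given as a description without a p.

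The genes most like the set were found by the correlation with the mean of the 10 genes' standardised levels, over 8 libraries and among 11314 genes with a mean of at least 5 CPM. They were St6gal2, C130026L21Rik, Ctss, Armh4, Dclre1a, Dcst1, Axl, Gm2824, Eef2k and Stxbp6, with correlations from 0.979 to 0.995. St6gal2, a sialyltransferase gene, had 82.3 and 95.1 CPM in home-cage NAc and 146 and 134 CPM in home-cage mPFC. Axl, a receptor kinase used in phagocytosis, had 29.5 and 30.1 CPM in home-cage NAc and 35.3 and 35.0 CPM in home-cage mPFC. Ctss, a cathepsin gene of microglia, had 12.3 and 13.6 CPM in home-cage NAc and 16.6 and 15.7 CPM in home-cage mPFC. These genes were picked on the same 8 libraries, so their levels are a description and no test is given.

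Other astrocyte genes were followed in 8 lists of 147 genes. In home-cage mice 138 were tested, of which 11 were higher in NAc and 21 lower, where 7.01% and 5.35% of all genes were. In exposed mice 36 were higher and 42 lower, where 19.2% and 17.1% of all genes were. After defeat 1 was higher and 1 lower of 139 (0.549% and 0.155% of all genes), and after cocaine 0 of 138 passed (0% of all genes).

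In the uptake and glutamine-cycle list (9 genes, median 0.08), Slc7a11, the cystine and glutamate exchanger, was lower in home-cage NAc (-0.75, SE 0.117, edgeR adjusted p = 0.0204). The other 8 genes did not pass, where 5.35% of all genes were lower and 7.01% higher. Among 12 tested genes of gap junctions, potassium, sodium and endfeet (median -0.32), 4 were lower and 0 higher in home-cage NAc, against 5.35% and 7.01% of all genes. They were Gjb6, described above, Gjb2, connexin 26, at -1.58 (SE 0.188, adjusted p = 0.0108), the prosaposin receptor gene Gpr37l1 at -0.42 (SE 0.0914, adjusted p = 0.0431), and the potassium channel gene Kcnj16 at -0.84 (SE 0.180, adjusted p = 0.0432). Kcnj16 was named with its value already known. It pairs with Kcnj10, which had -0.42 (adjusted p = 0.0683). In exposed mice 2 of the 12 genes were higher and 6 lower in NAc, against 19.2% and 17.1% of all genes. Slc4a4, the sodium bicarbonate cotransporter, was among the higher (1.14, SE 0.242, edgeR adjusted p = 0.0180) and did not pass in home-cage mice. It had 477 and 283 CPM in cocaine replicates 1 and 2, and 520 and 282 CPM in home-cage NAc replicates 1 and 2. After defeat it had 166 and 179 CPM.

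Of 19 metabolic genes (median -0.15), 2 were higher and 4 lower in home-cage NAc (7.01% and 5.35% of all genes). Fabp7, a fatty-acid-binding protein of astrocytes and progenitors, was higher (1.25, SE 0.191, edgeR adjusted p = 0.0195), as was the glycine cleavage gene Gldc (0.40, adjusted p = 0.0478). Etnppl, a phospholyase gene, was lower (-1.57, SE 0.126, adjusted p = 0.00474), with 5.30 and 6.10 CPM in NAc and 16.5 and 17.3 CPM in mPFC. Dio2, the enzyme that activates thyroid hormone, was also lower (-0.91, SE 0.0860, adjusted p = 0.00686), as was Pygm, a glycogen phosphorylase (-0.49, adjusted p = 0.0428).

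After defeat, Mt3, a metallothionein of the brain, was the gene of this list that rose (0.31, SE 0.0781, edgeR adjusted p = 0.0364). It had 75.6 and 85.8 CPM in the home-cage libraries and 104 and 95.1 CPM in the defeat libraries, which did not overlap. The call was lost without mPFC home-cage replicate 1 (adjusted p = 0.227), without defeat replicate 1 (adjusted p = 0.842) or 2 (adjusted p = 0.177), and with upper quartile scaling (adjusted p = 0.148).

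Of 13 tested genes of secreted and lipid-carrying proteins (median -0.12), 1 was higher and 2 lower in home-cage NAc (7.01% and 5.35% of all genes). Sparcl1 (-0.996, SE 0.154, edgeR adjusted p = 0.0199) and Chrdl1 (-1.43, SE 0.244, adjusted p = 0.0255), which both act on synapses, were lower. Thbs4, a thrombospondin, was higher (2.26, SE 0.330, adjusted p = 0.0173), with 8.36 and 9.95 CPM in NAc and 2.50 and 1.28 CPM in mPFC. Thbs4 also fell after defeat (-0.70, SE 0.183, adjusted p = 0.0464). That call rested on mPFC home-cage replicate 1, which had 340 counts against 142 in replicate 2 and 159 and 162 after defeat. Without it the log2 fold change was -0.12 (adjusted p = 0.884).

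Of 19 receptors (median 0.09), 4 were higher and 2 lower in home-cage NAc (7.01% and 5.35% of all genes). Bmpr1b, a bone morphogenetic protein receptor, was higher with the smallest p of this list (1.90, SE 0.117, edgeR adjusted p = 0.00262), with 130 and 136 CPM in NAc and 38.0 and 33.1 CPM in mPFC. Notch2 (0.92, SE 0.0899) and the endothelin receptor Ednrb (0.58, SE 0.115) were higher. Adra1a, an adrenergic receptor (-1.06, SE 0.137), and the adenosine receptor Adora2b (-0.72, SE 0.162) were lower.

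The transcription factor list (20 genes, median 0.34) had 3 higher and 3 lower members in home-cage NAc (7.01% and 5.35% of all genes). Nfia, a nuclear factor I gene that drives astrocyte development, had 414 and 503 CPM in NAc and 221 and 207 CPM in mPFC (1.10, SE 0.143, edgeR adjusted p = 0.0134). Prdm16 (0.55) and Gli2 (0.52), a factor of Sonic hedgehog signalling, were higher. Lhx2 (-0.997, SE 0.159) and Emx2 (-0.71, SE 0.124), patterning factors of the cortex, were lower. Nfix, the relative of Nfia, was lower (-1.13, SE 0.245, adjusted p = 0.0439). Neurons also express several of these factors and receptors, and their share was not tested.

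Of 34 genes known from reactive astrocytes, 27 were tested in home-cage mice (median -0.29), with 1 higher and 4 lower in NAc (7.01% and 5.35% of all genes). Fkbp5, a glucocorticoid-responsive chaperone gene, was higher (0.54, SE 0.0945). Cd44 (-2.04, SE 0.168) and Aspg (-2.48, SE 0.430) were lower from low levels, at 0.887 and 0.810 CPM and 0.192 and 0.477 CPM in home-cage NAc. Amigo2 was lower at -1.13 (SE 0.220). After defeat 0 of 28 tested and after cocaine 0 genes of this list passed. After defeat the ceruloplasmin gene Cp had the smallest p among them (0.22, SE 0.106, edgeR adjusted p = 0.662).

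**Figure D5:**
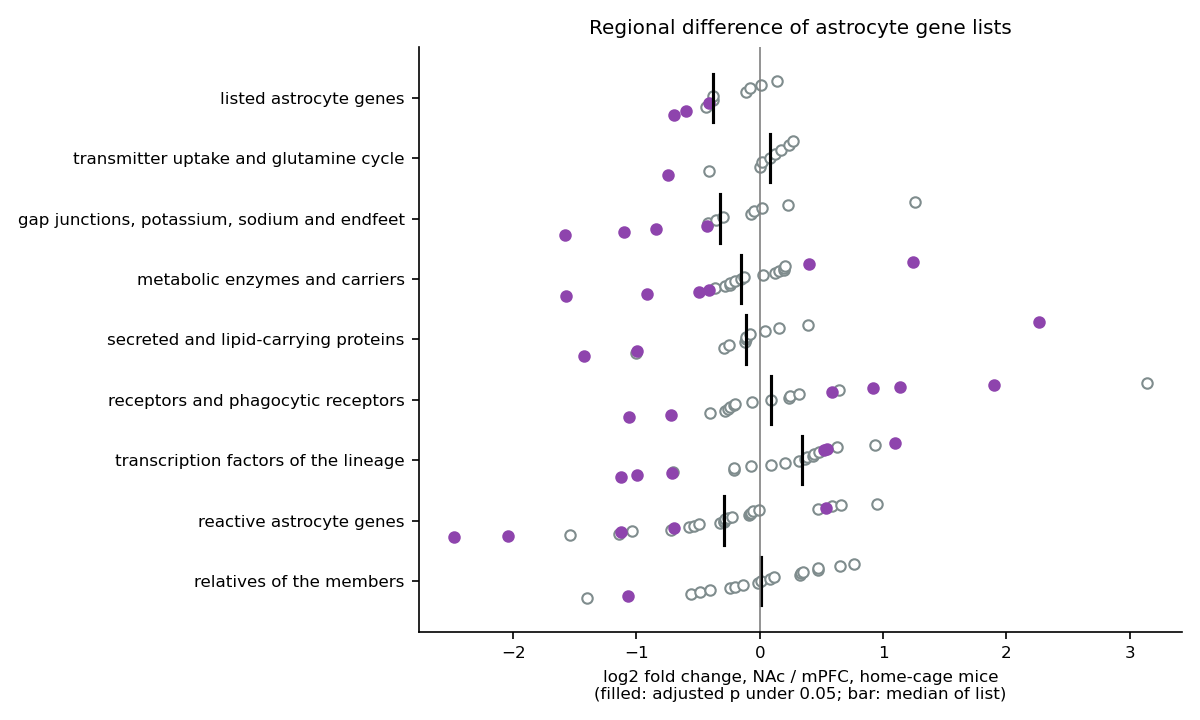
Log2 fold change of NAc against mPFC in home-cage mice (horizontal axis) for each tested gene of the 10 astrocyte genes and of 8 related lists; filled purple points have an adjusted p under 0.05 and black bars are medians. The medians run from -0.38 for the 10 genes to 0.34 for the transcription factors, and filled points lie on both sides of 0 in 5 lists.

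Markers of other cells moved with region too. All 8 striatal markers were higher in NAc in both regional comparisons (7.01% of all genes in home-cage mice and 19.2% in exposed mice). Of 8 cortical glutamatergic markers, 3 were lower in home-cage mice (5.35% of all genes) and 7 in exposed mice (17.1% of all genes). The summed cortical markers were 742 and 1524 CPM in NAc home-cage replicates 1 and 2, 906 and 1380 CPM in cocaine replicates 1 and 2, and 2218 to 2435 CPM in mPFC. The part of neuronal RNA in the regional values of the 10 genes was not tested. Within the NAc, the 9 genes other than Gfap stayed within 1.15-fold between numbers 1 and 2 in cocaine and in home-cage mice.

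Oligodendrocyte markers (6 genes) summed to 2244 and 1256 CPM in home-cage NAc, 2402 and 2115 CPM after cocaine, 1402 and 1167 CPM in home-cage mPFC, and 1029 and 1132 CPM after defeat. Their regional log2 fold change was positive in 6 of 6 in home-cage mice (median 0.42), where 0 passed (12.4% of all genes), and 6 of 6 were higher in NAc in exposed mice (median 1.02; 19.2% of all genes). Of the 5 ependymal and choroid plexus markers, Ccdc153 and Tmem212 were at most 0.15 CPM in every library, and the 5 summed to 7.41 to 15.8 CPM in NAc and 4.46 to 6.17 CPM in mPFC. Neuroblast markers summed to 145 to 194 CPM in NAc and 103 to 111 CPM in mPFC. In each regional comparison 2 of 4 were higher in NAc (7.01% of all genes in home-cage mice and 19.2% in exposed mice). Microglial markers summed to 47.1 to 54.9 CPM in NAc and 55.2 to 61.1 CPM in mPFC, with P2ry12 listed at 0 in all 8 libraries. Whether these cells contribute to the levels of the 10 genes was not tested.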

How the data were processed

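Total RNA libraries were counted with featureCounts after alignment by STAR 2.7.1a against mm10, per the submitters' processing notes. The authors deposited raw read counts per gene symbol, 1 table per region with the same 33885 symbols. Not given in the sources used here are the annotation, the featureCounts version, and how strand, intronic reads and multi-mapped reads were handled. The labels' titles number the NAc libraries within each group, and the mPFC replicates were numbered in the order deposited.

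From the counts, edgeR 4.0.16 (R 4.3.3) was used with filterByExpr, TMM scaling and the quasi-likelihood test on the 4 libraries compared, or on all 8 for the difference between responses. P-values were adjusted by Benjamini-Hochberg over all genes tested, and a gene passed at an adjusted p under 0.05. The SE was the log2 fold change divided by the root of the F statistic, and intervals are 95%. CPM used TMM factors over all 8 libraries. The tests were checked on simulated data. Gene positions came from GENCODE M21 (GRCm38), which held 33047 of the symbols, and promoter windows from RefSeq (GRCm38.p6).

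The members and gene lists were chosen with earlier results of these data known. All 10 genes are named in each comparison. From each related list up to 3 passing genes per direction with the smallest p are named, or, where none passed, at most the gene with the smallest p, besides relatives of the 10 genes and the 10 genes most like them. Alternatives were other scaling factors, no filter on low counts, DESeq2 1.42.0, a fit of all 8 libraries, a replicate block and leaving out each library.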

Additional observations from a re-analysis of the deposited data

How the results depend on the processing

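The calls of Slc1a2, Aldoc and Aldh1l1 in NAc against mPFC depended on the fit more than their values did. The fit of all 8 libraries called 6 of the 10 genes lower in home-cage mice and 4654 genes in all, and DESeq2 called 3622. The labels do not link NAc and mPFC libraries of the same replicate number, so a block by that number is arbitrary here. With it Aldoc and Aldh1l1 passed, Slc1a2 did not (-0.69, edgeR adjusted p = 0.0798), and 2174 genes passed. Without each library in turn, 0 to 8048 genes passed in home-cage mice, 0 to 6 of the 10 lower and 0 to 1 higher (Gfap), with medians of the 10 genes from -0.40 to -0.33. Upper quartile scaling gave a median of -0.41 and turned Mlc1 to -0.027; without single libraries Gfap ran from -0.039 to 0.30 and Mlc1 from -0.036 to 0.038. In exposed mice 1133 to 9334 genes passed, 0 to 7 of the 10 lower and 0 to 1 higher (Gfap), with Gfap from -0.55 to 0.40, Gja1 from -0.11 to 0.069 and Mlc1 from -0.0016 to 0.053. Gfap there had -0.0036 with upper quartile scaling, -0.0096 with no filter and -0.0039 with DESeq2.

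After cocaine DESeq2 called 4 genes and the replicate block 38, none of them among the 10. With the block Gfap had -0.012 and Fgfr3 -0.0014, and Fgfr3 had -0.0030 with no filter. Without single libraries Gfap ran from -0.49 to 0.45, Slc1a2 from -0.0078 to 0.16, Slc1a3 from -0.15 to 0.042, Gja1 from -0.077 to 0.098, Aldoc from -0.00070 to 0.088, Fgfr3 from -0.091 to 0.090 and the GABA transporter gene Slc6a11 from -0.32 to 0.036. After defeat the fit of all 8 libraries called 5 genes, and leaving out single libraries 58 to 238. The median of the 10 genes was -0.091 with upper quartile scaling and -0.059 to -0.0080 without single libraries, with Aqp4 from -0.072 to 0.15 and S100b from -0.021 to 0.075. For the difference between responses DESeq2 called 2 genes and leaving out single libraries 0 to 1. The median ran from 0.045 to 0.17, Gfap from -0.69 to 0.26, Slc1a3 from -0.13 to 0.070, Gja1 from -0.0047 to 0.18 and Mlc1 from -0.024 to 0.051, and Mlc1 had -0.0012 with no filter. The cause of these changes was not tested.

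The NAc numbers come from the titles, and the labels do not say what they mark. With 2 pairs they were not taken as a pairing in the tests reported. Deviations from the group means at the same number correlated over 18783 genes at 0.57 within NAc and 0.07 between the home-cage groups of the regions. No paired analysis was possible for defeat because the titles number the 4 mPFC libraries in a single series. With 2 libraries a group, an exact permutation test of a single gene cannot go below p = 0.333. The lowest count of any of the 10 genes in a library was 654, for S100b.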
